A study of Homo sapiens with 15 samples.

Results

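Mediator is the large complex that links transcription factors at enhancers and promoters to RNA polymerase II. The genes described here are its subunits together with its kinase module. They were chosen by symbol, as every gene named MED followed by a number, with or without a closing L, plus CDK8, CDK19 and CCNC. The rule found 33 genes of the 19620 entries in each of 2 deposited tables, and the rule itself uses no expression value. RNA was sequenced from OCI-AML5, an established cell line of acute myeloid leukaemia that was grown with GM-CSF at 10 ng/mL in Alpha MEM holding 20% serum. In the first experiment, 3 libraries each came from cells given 1000 nM ARV-825 for 4 h, from cells given 1000 nM OTX015 for 4 h and from untreated control cells. In the second, 3 libraries each came from cells exposed for 72 h to RUNX1 shRNA or to non-targeting shRNA. All 5 groups share this single cell line, and no separate cultures or days are named beyond the word triplicates, so p-values rest on how far the libraries of a group differ, which may be partly technical.

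OTX015 binds the bromodomains of BET proteins, which read acetylated histones, and ARV-825 carries OTX015 on a linker whose other end binds cereblon, part of a ubiquitin ligase, so that BET proteins are degraded. Mediator is heavily loaded at the enhancers of leukaemia genes. Core Mediator has a head and a middle module, which contact RNA polymerase II, a tail module, which binds many transcription factors, and the scaffold subunit MED14 that joins them. The kinase module (CDK8 or its paralogue CDK19, cyclin C, MED12 or MED12L, and MED13 or MED13L) binds reversibly and keeps core Mediator from engaging the polymerase. Assignments of single subunits to the head, middle and tail follow structures of the mammalian complex, with 7 head, 9 middle, 9 tail, 1 scaffold and 7 kinase module genes.

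The tables name no unit. Their values were taken as FPKM, fragments scaled to transcript length and library size, so that levels of different genes compare per length, and the authors had quantile normalized each table by itself. Library sums lay between 554570 and 656995 FPKM, and how many reads stand behind them is unknown. Of 13 markers of myeloid leukaemia, 10 had a mean of at least 1 FPKM in each table, and CD14, ANPEP and KIT were below it. All 24 markers of erythroid, T, B, epithelial and fibroblast cells had a mean below 1 FPKM in both tables. The summed FPKM of the myeloid list was 613 to 661 with ARV-825, 554 to 565 with OTX015 and 888.5 to 944 in control, and 674 to 689 with RUNX1 shRNA against 842 to 863 with non-targeting shRNA, and its part in the results below was not tested. The gene LYZ weighs heavily in these sums, with a mean of 493 FPKM over the drug libraries and 454 FPKM over the shRNA libraries. RUNX1, the target of the shRNA, had 37.2, 42.9 and 36.0 FPKM in the RUNX1 shRNA libraries and 69.8, 72.2 and 69.8 FPKM in the non-targeting libraries (log2 change -0.85 ± 0.059, limma adjusted p = 3.71e-05). The sample titles of the RUNX1 shRNA group carry the name Runx3, and RUNX3 had 28.0, 27.9 and 29.3 FPKM in it against 27.5, 28.5 and 25.0 FPKM with non-targeting shRNA.

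Mediator was expressed as a nearly complete set. In the control libraries 32 of the 33 genes had a mean of at least 1 FPKM, the same number as in each of the other groups, and 21 reached 10 FPKM. MED28, a tail subunit, stood highest at 55.9 ± 3.90 FPKM (mean ± SD, n = 3 libraries), followed by the middle subunit MED4 at 31.7 ± 1.18 FPKM, and neither overlapped its neighbour in the order of levels. Below them 22 of the neighbouring pairs overlapped between libraries, for example MED16, MED24 and MED1 at 24.7, 24.3 and 23.2 FPKM. At the bottom were MED9 at 4.97, MED31 at 3.14 and MED12L at 0.470 FPKM. MED28 and MED4 also led, and MED31 and MED12L also closed, the order in the non-targeting shRNA libraries, at 60.7, 35.3, 3.04 and 0.589 FPKM, though the tables were normalized apart. Summed over the 33 genes, Mediator came to 478 ± 4.94 FPKM with ARV-825, 541.5 ± 2.72 FPKM with OTX015 and 489.7 ± 1.62 FPKM in control, and to 574 ± 1.79 FPKM with RUNX1 shRNA and 569.7 ± 3.07 FPKM with non-targeting shRNA. These sums are given as a description, with no test.

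**Figure D1:**
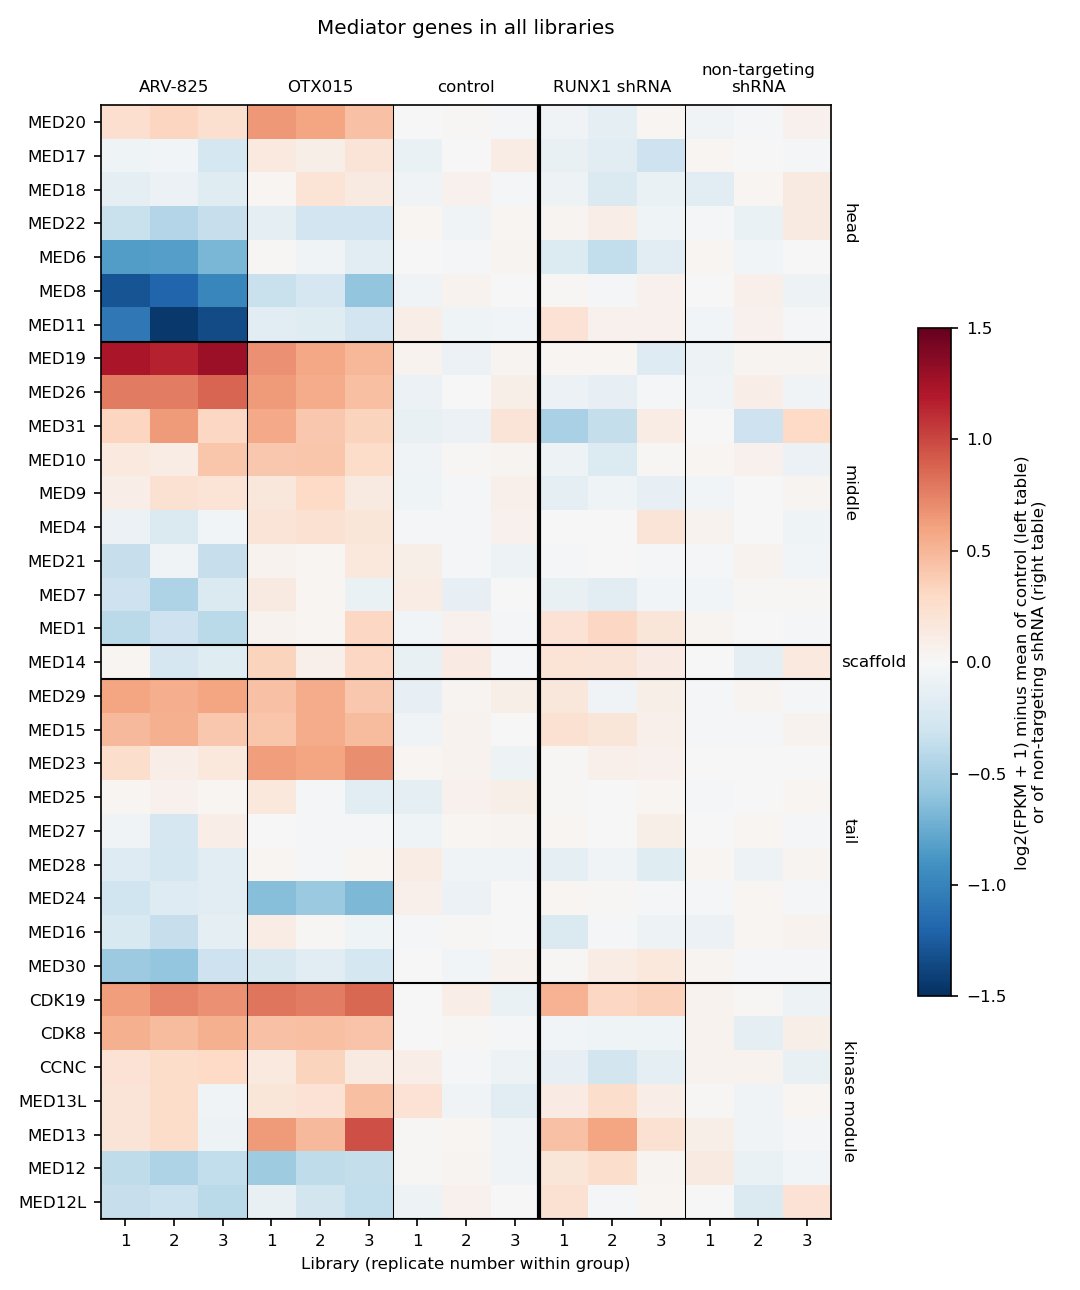
Heat map of the 33 Mediator genes (rows, by module) in the 15 libraries (columns, by group and replicate). Colour gives log2(FPKM + 1) minus the mean of the control libraries for the drug table, left of the thick line, or of the non-targeting shRNA libraries, right of it. MED19 and MED26 are the reddest rows with ARV-825, MED11, MED8 and MED6 the bluest, and the shRNA side is pale.

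The comparison of ARV-825 with control asked how Mediator genes stood 4 h after the degrader. They moved in both directions: the middle subunits MED19 and MED26, the tail subunits MED29 and MED15 and the kinases CDK8 and CDK19 rose, while the head subunits MED11, MED8 and MED6 fell furthest. The limma test took all genes averaging 1 FPKM or more, as log2(FPKM + 1), on which changes of low genes come out too small, with a threshold of 0.05 on the Benjamini-Hochberg adjusted p over all genes tested. Of the 32 members tested, 24 passed (12 higher and 12 lower), which is 75.0%, against 74.2% of all 10819 genes tested (35.8% higher and 38.4% lower). The share is near that background, so the count says nothing particular about Mediator. The ARV-825 and control libraries did not overlap for 25 of the 32, against 76.2% of all genes. The median log2 change was -0.09 over the members and -0.01 over all genes. In bulk RNA, a level that is lower in every cell cannot be told apart from fewer cells that hold the transcript.

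Among the middle subunits, MED19 moved most. MED19 had 23.8, 22.4 and 24.7 FPKM with ARV-825, 16.0, 14.8 and 13.9 FPKM with OTX015, and 9.93, 8.91 and 9.86 FPKM in control. The 3 groups did not overlap, and the log2 change was 1.22 ± 0.066 for ARV-825 (SE, limma adjusted p = 4.46e-08) and 0.59 ± 0.066 for OTX015 (adjusted p = 1.64e-05), each against control. MED26, the subunit through which Mediator recruits elongation factors, had 11.4, 11.2 and 12.1 FPKM with ARV-825, 10.1, 9.59 and 8.85 FPKM with OTX015, and 5.78, 6.16 and 6.64 FPKM in control. Its groups also stood apart, with log2 changes of 0.81 ± 0.071 for ARV-825 (adjusted p = 1.66e-06) and 0.55 ± 0.071 for OTX015 (adjusted p = 4.31e-05). In GENCODE 29, MED26 shares 13.2% and 27.2% of its exon bases with 2 other coding entries on the same strand, between which reads could be split. One of them, listed as CTC-429P9.4, was below 0.01 FPKM in the 3 ARV-825 libraries, at 3.12, 3.48 and 0.00576 FPKM with OTX015 and at 0.497, 4.18 and 1.72 FPKM in control, and its part in the value of MED26 was not tested.

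MED1, which binds nuclear receptors, went the other way with the degrader. MED1 had 17.3, 18.5 and 17.2 FPKM with ARV-825, 24.1, 23.8 and 28.996 FPKM with OTX015, and 22.4, 24.4 and 22.7 FPKM in control. All ARV-825 libraries lay below all others, with a log2 change of -0.37 ± 0.073 against control (limma adjusted p = 0.000822), and the change with OTX015 was 0.13 (95% interval -0.03 to 0.30, adjusted p = 0.128). MED31 rose with both compounds, to 4.56 ± 0.740 FPKM with ARV-825 and 4.59 ± 0.468 FPKM with OTX015, against 3.14 ± 0.499 FPKM in control. Its exons overlap for 58.3% of their bases with TXNDC17 on the opposite strand, a gene at 90.6 ± 12.6 FPKM with ARV-825 and 72.5 ± 6.79 FPKM in control. Strand is not stated for these libraries, so reads of the 2 genes cannot be told apart. MED10 and MED9 rose with both compounds by 0.18 to 0.37 on the log2 scale, and MED7 and MED21 fell with ARV-825 by 0.33 and 0.25 on that scale. MED4 did not pass with ARV-825 (-0.12, 95% interval -0.23 to 6.4e-05, adjusted p = 0.066; 0.0232 without ARV-825 replicate 3) and rose with OTX015 by 0.20 (adjusted p = 0.0057). Several of these calls depended on single libraries or on the setting. That of MED9 with ARV-825 was lost without ARV-825 replicate 2 or 3 or control replicate 1 or 2 (adjusted p = 0.101 to 0.143), and also with no filter (0.0613), a filter at 5 FPKM (0.0502), a replicate block (0.0647) or a fit of those 6 libraries alone (0.0605). That of MED9 with OTX015 was lost after median-ratio rescaling (0.0542) and without OTX015 replicate 1 or 2 or control replicate 1 or 2 (0.0566 to 0.135). MED10 with ARV-825 lost it with no filter (0.0524) and without ARV-825 replicate 3 (0.103) or control replicate 1 (0.089) or 2 (0.0564), and MED21 without ARV-825 replicate 1 (0.0716) or 3 (0.065) or control replicate 1 (0.07).

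The head module held the deepest falls. MED11, which pairs with MED22 at the base of the head in the yeast complex, had 4.28, 3.09 and 3.40 FPKM with ARV-825, 8.85, 8.80 and 8.11 FPKM with OTX015, and 10.9, 9.63 and 9.81 FPKM in control. It fell by 1.28 ± 0.096 on the log2 scale with ARV-825 (limma adjusted p = 4.78e-07). With OTX015 all 3 libraries also lay below control, with a change of -0.21 ± 0.096 that missed the threshold (adjusted p = 0.0664) and passed after median-ratio rescaling (adjusted p = 0.0389), with a replicate block (0.046) and in a fit of those 6 libraries alone (0.0169). The exons of MED11 share 5.8% of their bases with the chemokine gene CXCL16 on the opposite strand, whose change was 0.03 ± 0.12 with ARV-825 (adjusted p = 0.85) and -0.64 ± 0.12 with OTX015 (adjusted p = 0.000672), and 31.1% with an antisense RNA that is not among the table's entries.

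MED8, another head subunit, had 6.27, 6.81 and 8.002 FPKM with ARV-825, 13.2, 13.9 and 10.8 FPKM with OTX015, and 16.2, 17.4 and 16.8 FPKM in control. The order of the 3 groups was complete, with a fall of 1.15 ± 0.098 on the log2 scale for ARV-825 (limma adjusted p = 1.34e-06) and of 0.39 ± 0.098 for OTX015 (adjusted p = 0.00427). MED6 had 10.5, 10.6 and 11.7 FPKM with ARV-825, 19.8, 18.9 and 17.2 FPKM with OTX015, and 19.5, 19.0 and 20.1 FPKM in control. It fell with ARV-825 by 0.78 ± 0.064 on the log2 scale (adjusted p = 9.31e-07), and its change with OTX015 was -0.07 (95% interval -0.21 to 0.07, adjusted p = 0.359). Smaller differences were seen in the rest of the head. MED22 had 4.87, 4.48 and 4.85 FPKM with ARV-825, 5.69, 5.10 and 5.08 FPKM with OTX015, and 6.57, 6.16 and 6.56 FPKM in control, and it fell with both compounds (-0.37 and -0.24).

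MED20 alone of the 7 head genes passed as higher, with both compounds. It had 11.3, 11.9 and 11.1 FPKM with ARV-825, 15.2, 14.5 and 12.9 FPKM with OTX015, and 9.25, 9.43 and 9.15 FPKM in control, and its log2 changes were 0.27 ± 0.064 for ARV-825 (limma adjusted p = 0.0027) and 0.56 ± 0.064 for OTX015 (adjusted p = 1.78e-05). MED17, the central head subunit, had 18.1, 18.5 and 15.7 FPKM with ARV-825, 21.1, 20.4 and 21.9 FPKM with OTX015, and 17.7, 18.9 and 20.7 FPKM in control. These overlapped, and neither MED17 (-0.12 and 0.14) nor MED18, which pairs with MED20 (-0.14 and 0.12), passed against control with all libraries. With OTX015, MED17 passed without control replicate 3 (adjusted p = 0.0445) and MED18 without OTX015 replicate 1 (0.0428). Summed over its 7 genes, the head came to 67.2 ± 0.741 FPKM with ARV-825, 95.1 ± 3.72 FPKM with OTX015 and 94.6 ± 1.69 FPKM in control, while the 9 middle genes came to 125 ± 3.28, 136 ± 0.853 and 113 ± 1.67 FPKM in the same groups.

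**Figure D2:**
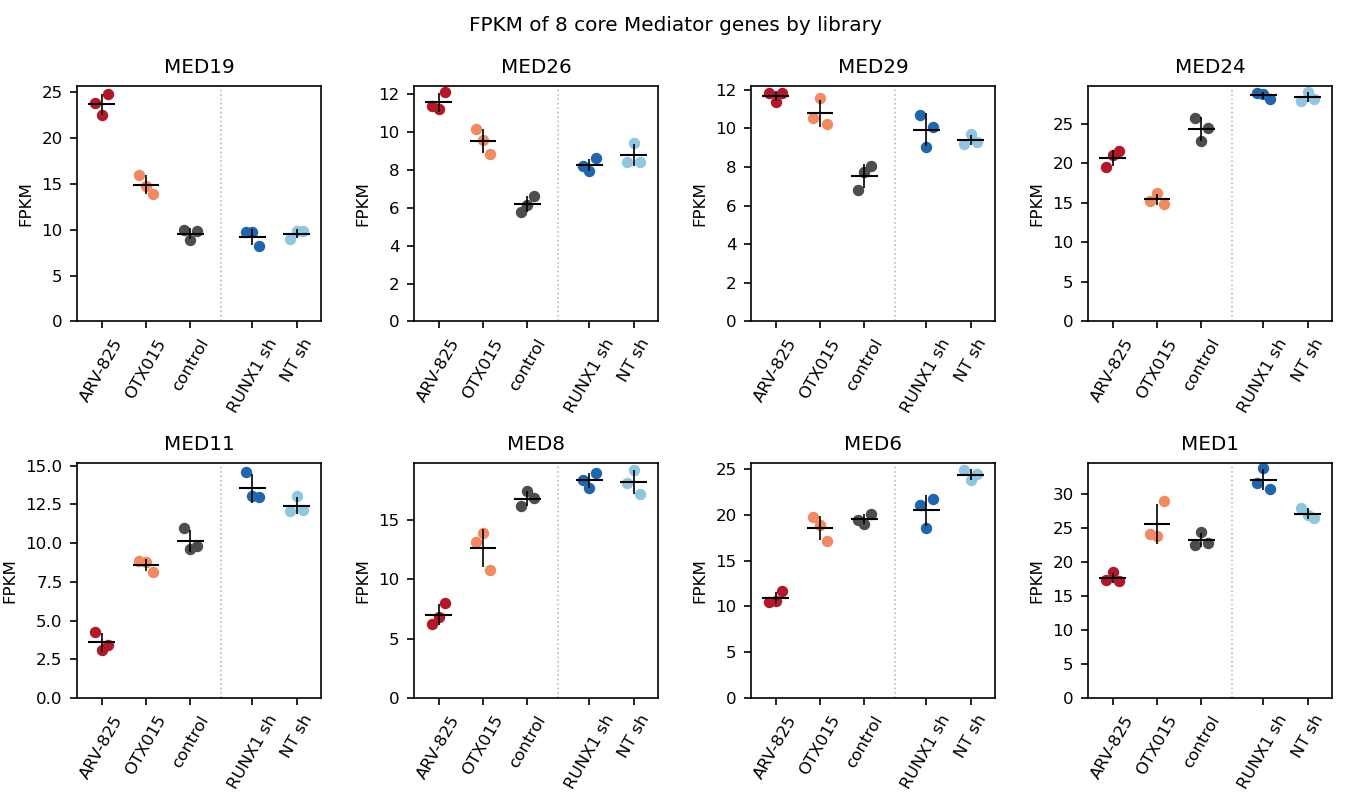
FPKM of 8 core Mediator genes by library, with points for the 3 libraries of a group, a bar for the mean and a line for ± 1 SD. The dotted line parts the 2 separately normalized tables. MED19 lies between 22.4 and 24.7 FPKM with ARV-825, above 13.9 to 16.0 FPKM with OTX015 and 8.91 to 9.93 FPKM in control, and MED11 shows the opposite order.

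The windows from 250 bases before to 50 bases after the annotated start are shown for the 2 members that rose most with ARV-825 (MED19 and MED26), for the kinase gene CDK8 and for the member that fell most (MED11). They are from RefSeq on GRCh38.p14, a build other than the hg19 of the expression tables, and each is written 5′ to 3′ along its gene. MED19 is from chr11:57712166-57712465 (minus strand), MED26 from chr19:16628155-16628454 (minus strand), CDK8 from chr13:26253879-26254178 (plus strand) and MED11 from chr17:4731178-4731477 (plus strand). Capitals mark matches, on either strand, to the motif letters named in the paragraph that follows.
MED19: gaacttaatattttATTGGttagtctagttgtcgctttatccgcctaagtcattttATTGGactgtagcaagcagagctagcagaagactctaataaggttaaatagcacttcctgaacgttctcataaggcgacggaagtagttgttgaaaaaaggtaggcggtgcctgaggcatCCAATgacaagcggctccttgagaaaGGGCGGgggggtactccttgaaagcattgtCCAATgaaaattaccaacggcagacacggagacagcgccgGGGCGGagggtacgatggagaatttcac
MED26: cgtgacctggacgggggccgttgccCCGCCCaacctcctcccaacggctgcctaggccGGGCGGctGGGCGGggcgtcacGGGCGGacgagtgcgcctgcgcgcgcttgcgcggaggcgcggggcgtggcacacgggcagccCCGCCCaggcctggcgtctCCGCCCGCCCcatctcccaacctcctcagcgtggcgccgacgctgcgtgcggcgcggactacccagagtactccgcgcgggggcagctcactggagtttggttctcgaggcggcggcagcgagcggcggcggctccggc
CDK8: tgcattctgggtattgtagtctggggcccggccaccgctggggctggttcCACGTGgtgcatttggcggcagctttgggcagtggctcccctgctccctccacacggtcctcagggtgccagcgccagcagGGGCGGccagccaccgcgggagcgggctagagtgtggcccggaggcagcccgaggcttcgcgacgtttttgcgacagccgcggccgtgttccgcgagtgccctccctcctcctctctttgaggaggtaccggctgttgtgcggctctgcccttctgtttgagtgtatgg
MED11: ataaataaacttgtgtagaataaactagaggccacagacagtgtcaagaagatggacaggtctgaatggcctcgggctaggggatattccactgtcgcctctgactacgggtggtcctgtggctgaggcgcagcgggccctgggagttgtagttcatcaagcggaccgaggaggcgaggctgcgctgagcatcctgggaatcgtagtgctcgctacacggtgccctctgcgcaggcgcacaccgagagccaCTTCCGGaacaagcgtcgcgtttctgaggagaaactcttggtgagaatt

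RefSeq held such a window for 25 of the 33 members, and 6 motifs were searched on both strands, with a median GC content of 58.5% in the members' 30 windows and 58.7% in all 35116 windows. A member was counted if any of its windows matched, while the percentages count single windows, so they do not compare directly. The GC box (GGGCGG) was in windows of 16 of the 25 members and in 45.0% of all windows, the CCAAT box (CCAAT) in 10 members and 34.6%, and the ETS motif (CCGGAAG) in 7 members and 10.3%. The RUNX motif (TGTGGT) was in 4 members (CDK19, MED12, MED15 and MED29) and 13.1% of all windows. The E-box (CACGTG) bound by MYC was in CDK8 and MED13L and in 7.3% of all windows and the TATA box (TATAAA) in MED16 and MED7 and in 11.5%. The MED19 window holds GC boxes and CCAAT boxes and is 47.0% GC. MED26, at 77.3% GC, holds GC boxes alone among the 6 motifs, and MED11, at 56.3% GC, holds a single ETS match. None of the 6 letter strings contains another. These are letter matches, with no measurement of binding here.

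MED19, MED20, MED29 and MED15 are among the 9 members whose annotated start lies within 1000 bases of a coding gene that runs the other way, and the partners did not all move alike. TMX2, opposite MED19, had 51.8 ± 0.454 FPKM with ARV-825 and 57.4 ± 1.86 FPKM in control (log2 change -0.15, limma adjusted p = 0.00528), and its change with OTX015 was -0.27 (adjusted p = 9.91e-05). BYSL, a ribosome assembly gene opposite MED20, fell by 0.88 on the log2 scale with ARV-825 (adjusted p = 2.11e-06) and by 0.89 with OTX015 (adjusted p = 2.74e-06). PAF1, opposite MED29, differed by -0.03 with ARV-825 (adjusted p = 0.534) and rose by 0.39 with OTX015 (adjusted p = 2.19e-05). KLHL22, opposite MED15, rose by 0.63 with ARV-825 (adjusted p = 1e-04) and by 0.52 with OTX015 (adjusted p = 0.000511).

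The tail module, which meets transcription factors, was divided. MED29 had 11.8, 11.4 and 11.8 FPKM with ARV-825, 10.5, 11.6 and 10.2 FPKM with OTX015, and 6.81, 7.74 and 8.03 FPKM in control. MED15, which binds activators such as SREBP through its KIX domain, had 29.3, 30.3 and 27.5 FPKM with ARV-825, 27.8, 30.6 and 28.9 FPKM with OTX015, and 19.8, 21.4 and 20.5 FPKM in control. For both genes the ARV-825 and OTX015 libraries overlapped each other and lay above all control libraries. The log2 changes were 0.57 ± 0.071 and 0.47 ± 0.071 for MED29 and 0.48 ± 0.054 and 0.48 ± 0.054 for MED15, with ARV-825 and then OTX015, and all 4 had limma adjusted p between 1.27e-05 and 0.000154.

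MED23, a subunit contacted by the factor ELK1, had 9.89, 8.76 and 9.09 FPKM with ARV-825, 13.02, 12.7 and 13.7 FPKM with OTX015, and 8.23, 8.41 and 7.60 FPKM in control. It rose with OTX015 by 0.64 ± 0.065 on the log2 scale (limma adjusted p = 7.26e-06) and with ARV-825 by 0.17 ± 0.065 (adjusted p = 0.0316), a call lost without ARV-825 replicate 1 or control replicate 3 (0.124 for each), with a replicate block (0.0576) and in a fit of those 6 libraries alone (0.0551). MED24, its partner in the tail, had 19.6, 21.1 and 21.5 FPKM with ARV-825, 15.2, 16.2 and 14.9 FPKM with OTX015, and 25.8, 22.8 and 24.5 FPKM in control. It fell furthest of the Mediator genes tested with OTX015 (-0.62 ± 0.06, adjusted p = 4.87e-06) and less with ARV-825 (-0.22 ± 0.06, adjusted p = 0.00617), and the 3 groups did not overlap. MED30 had 13.6, 13.3 and 16.3 FPKM with ARV-825, 17.1, 17.98 and 16.7 FPKM with OTX015, and 20.3, 19.7 and 21.2 FPKM in control, in complete order (-0.48 and -0.23), though the call with OTX015 was lost without OTX015 replicate 3 (adjusted p = 0.0517) or control replicate 3 (0.0628). MED16 and MED28 fell with ARV-825 by 0.24 and 0.21 on the log2 scale and did not pass with OTX015 (0.02 for each), and MED25 and MED27 passed with neither compound.

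The scaffold gene MED14 had 13.99, 11.3 and 11.9 FPKM with ARV-825, 17.4, 14.4 and 17.1 FPKM with OTX015, and 12.6, 14.96 and 13.5 FPKM in control. Both drug groups overlapped control. The change with ARV-825 was -0.13 (95% interval -0.34 to 0.08, limma adjusted p = 0.23), and the rise of 0.24 ± 0.095 with OTX015 (adjusted p = 0.0438) was lost in 8 of 13 alternative settings, among them without OTX015 replicate 1 (0.145) or 3 (0.123) and control replicate 1 (0.147) or 3 (0.0996).

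In the kinase module, both catalytic paralogues and cyclin C rose with both compounds, and MED12, which activates the kinase, fell. CDK8 had 13.98, 13.4 and 13.9 FPKM with ARV-825, 13.03, 13.1 and 12.9 FPKM with OTX015, and 9.26, 9.46 and 9.23 FPKM in control. CDK19 had 11.8, 12.8 and 12.4 FPKM with ARV-825, 13.5, 13.2 and 14.1 FPKM with OTX015, and 7.30, 7.94 and 6.76 FPKM in control. Both drug groups lay above control for both kinases, with log2 changes for CDK8 of 0.52 ± 0.049 with ARV-825 (limma adjusted p = 3.08e-06) and 0.44 ± 0.049 with OTX015 (adjusted p = 1.46e-05), and for CDK19 of 0.68 ± 0.066 (adjusted p = 3.42e-06) and 0.81 ± 0.066 (adjusted p = 1.32e-06). CDK19 was the Mediator gene that rose most with OTX015. As a share of CDK8 plus CDK19, CDK8 made up 52.7 ± 1.58% with ARV-825, 48.9 ± 1.09% with OTX015 and 56.0 ± 1.69% in control, on the FPKM scale.

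CCNC, which encodes cyclin C, had 26.4, 27.6 and 28.2 FPKM with ARV-825, 25.2, 28.7 and 25.0 FPKM with OTX015, and 24.3, 22.3 and 21.5 FPKM in control. It rose by 0.26 ± 0.064 on the log2 scale with ARV-825 (limma adjusted p = 0.00341) and by 0.20 ± 0.064 with OTX015 (adjusted p = 0.0154), and the ratio of CCNC to CDK8 plus CDK19 was 1.05 ± 0.0229 with ARV-825, 0.9899 ± 0.0903 with OTX015 and 1.36 ± 0.0949 in control. The call for OTX015 was lost without OTX015 replicate 2 (adjusted p = 0.0666) and without control replicate 3 (0.0644). MED12 had 8.29, 7.73 and 8.37 FPKM with ARV-825, 7.36, 8.26 and 8.39 FPKM with OTX015, and 11.2, 11.4 and 10.6 FPKM in control. The drug groups overlapped each other below control, with log2 changes of -0.40 ± 0.066 (adjusted p = 0.000221) and -0.42 ± 0.066 (adjusted p = 0.000183).

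MED12L, the paralogue of MED12, stood below the level tested, at 0.158, 0.177 and 0.106 FPKM with ARV-825, 0.356, 0.214 and 0.133 FPKM with OTX015, and 0.392, 0.538 and 0.480 FPKM in control. With no filter on low values its changes were -0.36 ± 0.066 for ARV-825 (limma adjusted p = 0.00196) and -0.25 ± 0.066 for OTX015 (adjusted p = 0.0127), and MED12 made up 95.9 ± 0.618% of the pair in control. MED13, which ties the kinase module to core Mediator, had 11.6, 12.4 and 9.48 FPKM with ARV-825, 16.2, 14.4 and 20.6 FPKM with OTX015, and 10.2, 10.2 and 9.65 FPKM in control. OTX015 libraries lay above all others, with a log2 change of 0.70 ± 0.12 (adjusted p = 0.000375), and that with ARV-825 was 0.13 (95% interval -0.13 to 0.40, adjusted p = 0.328). Its paralogue MED13L had 15.04, 15.98 and 12.6 FPKM with ARV-825, 14.97, 15.3 and 18.3 FPKM with OTX015, and 15.3, 12.5 and 11.6 FPKM in control. These groups overlapped, and the rise with OTX015 (0.28 ± 0.11, adjusted p = 0.045) was lost in 8 of 13 alternative settings, among them without OTX015 replicate 2 (0.0558) or 3 (0.164) and control replicate 2 (0.118) or 3 (0.167).

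**Figure D3:**
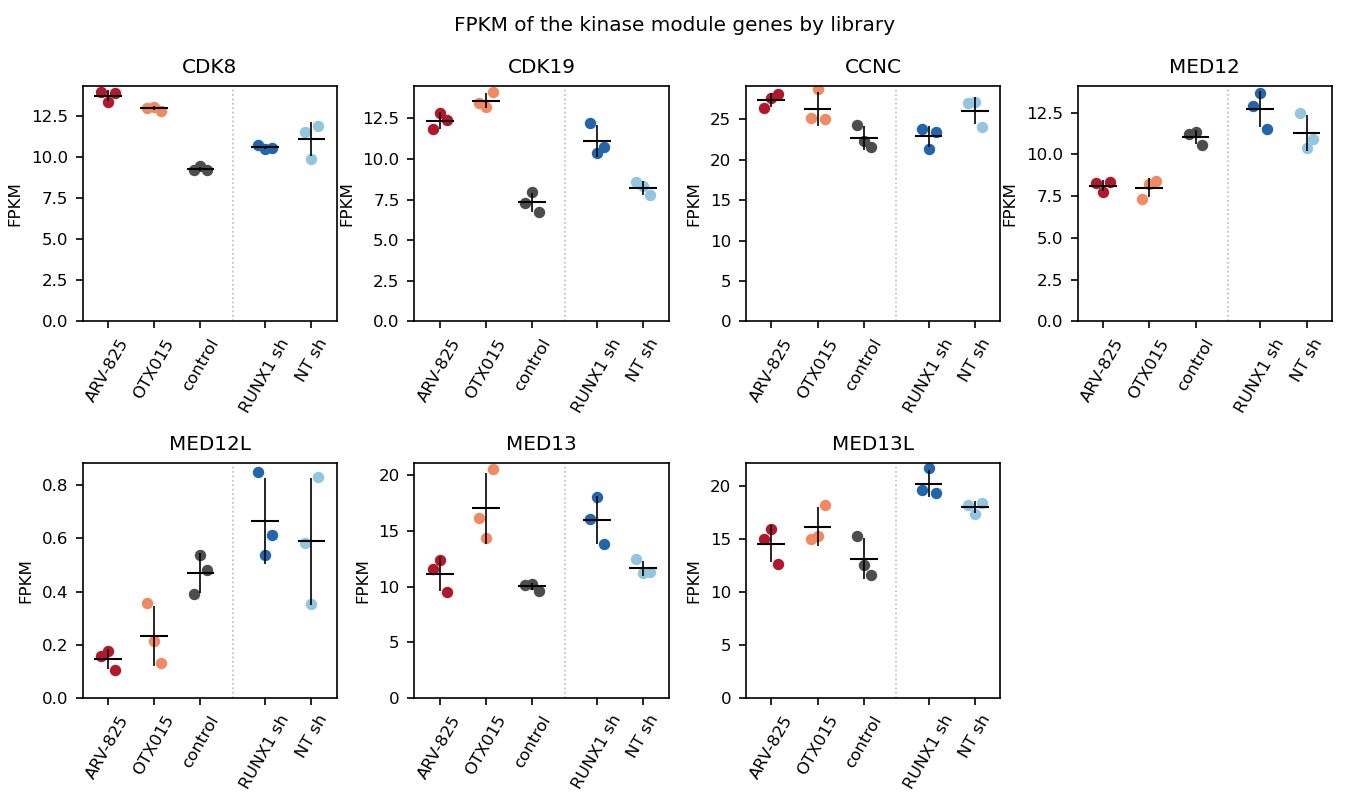
FPKM of the 7 kinase module genes by library, with points for libraries, a bar for the mean and a line for ± 1 SD. The dotted line parts the separately normalized tables. CDK8 and CDK19 lie above control with both drugs (CDK8 at 13.4 to 13.98 FPKM with ARV-825, 12.9 to 13.1 FPKM with OTX015 and 9.23 to 9.46 FPKM in control), and CDK19 also lies higher with RUNX1 shRNA than with non-targeting shRNA.

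With OTX015, the parent inhibitor at the same dose and time, 21 of 32 members passed against control (16 higher and 5 lower), which is 65.6%, against 69.6% of all genes tested (36.1% higher and 33.5% lower). The 2 groups did not overlap for 20 of the 32, against 75.3% of all genes. The median log2 change was 0.17 over the members and 0.03 over all genes. CDK19, MED13, MED23, MED19 and MED20 rose most, and MED24, MED12, MED8, MED22 and MED30 were the 5 that fell. By at least 0.5 on the log2 scale, 6 members rose and 1 fell with OTX015, where 31.7% of all genes passed and moved by as much in either direction, and 5 rose and 3 fell with ARV-825, where 38.7% did. Both comparisons share the control libraries.

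**Figure D4:**
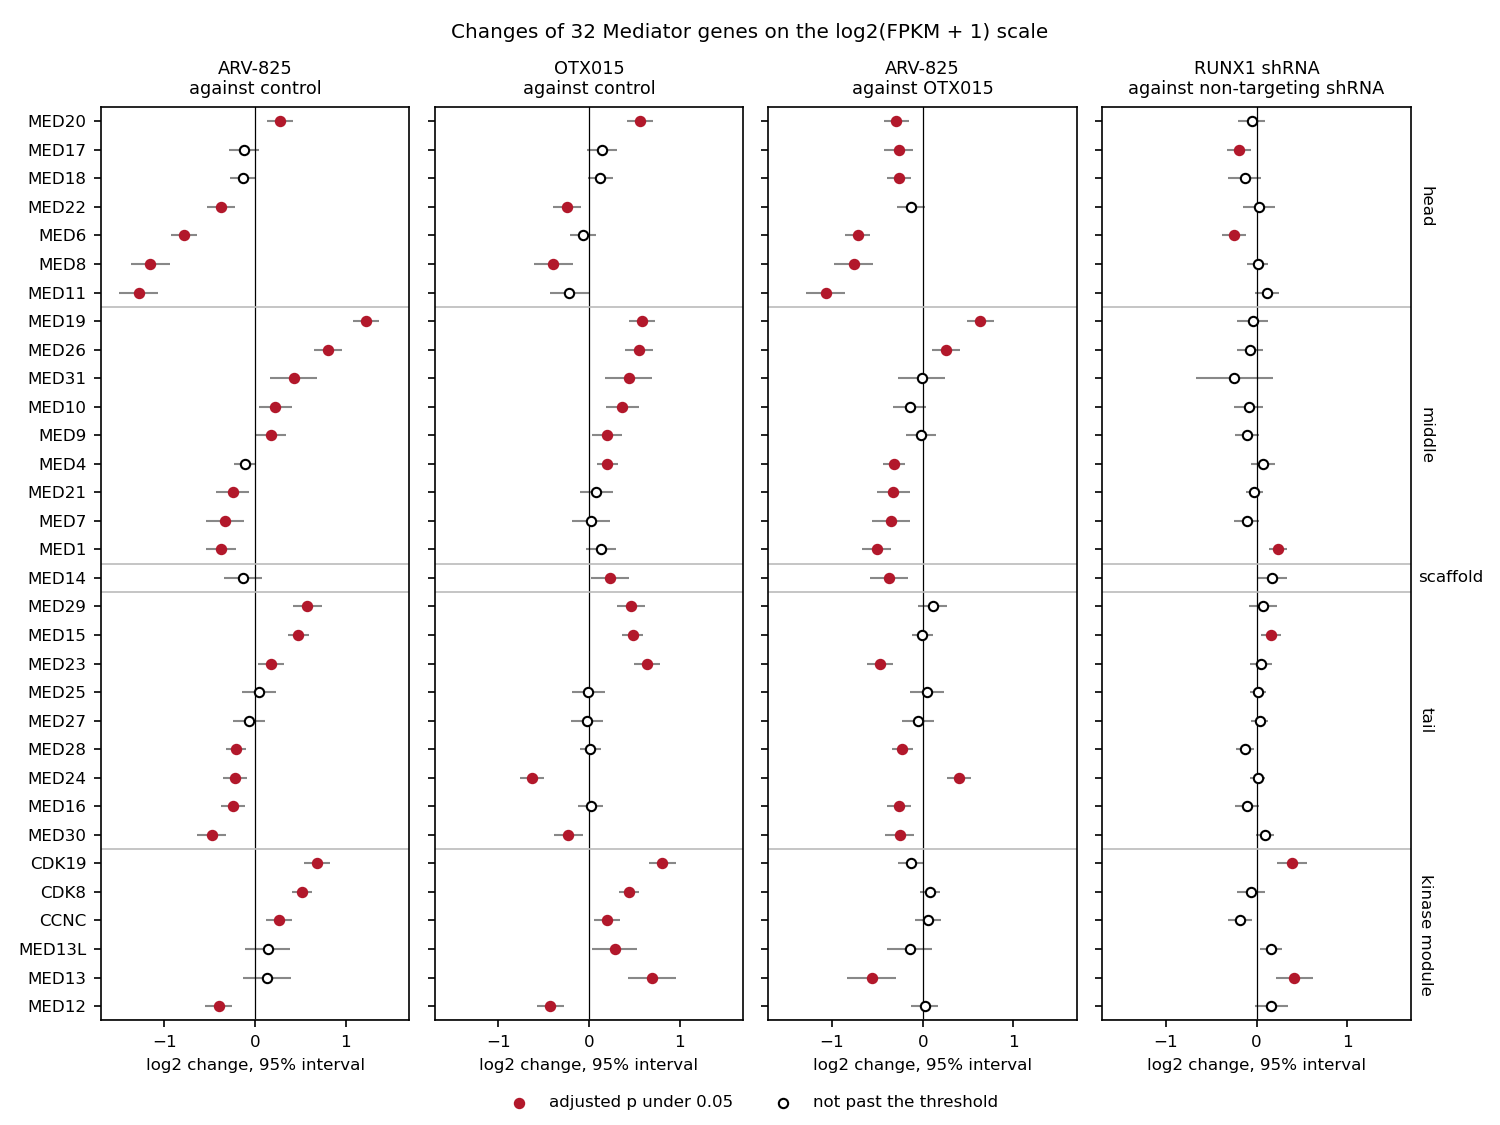
Log2 change of the 32 tested Mediator genes, by module, in 4 comparisons, on the log2(FPKM + 1) scale. Points are limma estimates with 95% intervals, filled where the adjusted p is under 0.05. The head genes MED6, MED8 and MED11 lie far left with ARV-825 (-0.78, -1.15 and -1.28), and no shRNA change is larger than 0.42 in size.

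The degrader and the inhibitor, which differ by the cereblon ligand and linker that ARV-825 carries, were compared directly as 1 pair of compounds at matched dose and time. Core Mediator genes that passed were mostly lower with ARV-825 than with OTX015, and MED13 of the kinase module was lower too. In the kinase module CDK8, CDK19, CCNC, MED12 and MED13L did not pass. Neither did the core genes MED9, MED10, MED15, MED22, MED25, MED27, MED29 and MED31. Of 32 members, 19 passed (3 higher and 16 lower), which is 59.4%, against 58.1% of all genes tested (24.7% higher and 33.4% lower). The ARV-825 and OTX015 libraries did not overlap for 22 of the 32, against 62.0% of all genes. The median log2 difference was -0.19 over the members and -0.04 over all genes. By module, 6 of 7 head, 4 of 9 middle, 4 of 9 tail, 1 of 6 kinase module genes and MED14 were lower, and 2 middle and 1 tail gene were higher.

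MED11 differed most, at 3.59 ± 0.618 FPKM with ARV-825 and 8.58 ± 0.414 FPKM with OTX015 (log2 difference -1.07 ± 0.096, limma adjusted p = 9.71e-06). MED8 (-0.76 ± 0.098, adjusted p = 9.35e-05), MED6 (-0.72 ± 0.064, adjusted p = 9.41e-06), MED13 (-0.56 ± 0.12, adjusted p = 0.00231) and MED1 (-0.51 ± 0.073, adjusted p = 0.000197) followed, each with all ARV-825 libraries below all OTX015 libraries. MED14 was lower by 0.37 on the log2 scale (adjusted p = 0.00669). Higher with ARV-825 than with OTX015 were MED19 (0.64 ± 0.066, adjusted p = 2.43e-05), MED24 (0.40 ± 0.06, adjusted p = 0.000238) and MED26 (0.26 ± 0.071, adjusted p = 0.00963). The remaining lower genes were MED23 (-0.47), MED7 (-0.35), MED21 (-0.33), MED4 (-0.32), MED20 (-0.29), MED17 (-0.27), MED18 (-0.26), MED16 (-0.26), MED30 (-0.25) and MED28 (-0.23).

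For the 13 members that did not pass, the 95% intervals of the difference lay within -0.40 to 0.27 on the log2 scale. MED15 had the narrowest gap (difference -0.004, interval -0.12 to 0.12), and MED12 differed by 0.02 (interval -0.12 to 0.17) and CCNC by 0.06 (interval -0.08 to 0.20). CDK8 differed by 0.08 (interval -0.03 to 0.19, limma adjusted p = 0.2) and passed after median-ratio rescaling (0.12, adjusted p = 0.048). CDK19 differed by -0.13 (interval -0.27 to 0.02, adjusted p = 0.118). The ARV-825 and OTX015 libraries did not overlap for either kinase. MED10, at -0.14, passed without ARV-825 replicate 3 (-0.24, adjusted p = 0.0123).

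In the RUNX1 shRNA experiment, fewer Mediator genes passed. CDK19 and the kinase module linker MED13 rose most with RUNX1 shRNA, MED1 and MED15 also rose, and the head genes MED6 and MED17 fell. Of 32 members, 6 passed in limma (4 higher and 2 lower), which is 18.8%, against 27.4% of 10925 genes tested (13.5% higher and 13.8% lower). The groups did not overlap for 11 of the 32, against 44.1% of all genes. The median log2 change was 0.01 over the members and -0.01 over all genes, and 0 members passed with a change of 0.5 or more on that scale, against 3.23% of all genes.

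CDK19 had 12.2, 10.4 and 10.7 FPKM with RUNX1 shRNA against 8.59, 8.34 and 7.76 FPKM with non-targeting shRNA. MED13 had 16.1, 18.04 and 13.8 FPKM with RUNX1 shRNA against 12.5, 11.2 and 11.4 FPKM with non-targeting shRNA. Neither gene overlapped between groups, with log2 changes of 0.39 ± 0.07 for CDK19 (limma adjusted p = 0.00477) and 0.42 ± 0.088 for MED13 (adjusted p = 0.00989). CDK8 overlapped, with 10.7, 10.5 and 10.6 FPKM with RUNX1 shRNA against 11.6, 9.93 and 11.9 FPKM with non-targeting shRNA (-0.06, 95% interval -0.21 to 0.10), and its share of the pair was 48.9 ± 1.91% with RUNX1 shRNA and 57.4 ± 3.07% with non-targeting shRNA. CCNC had 23.8, 21.4 and 23.5 FPKM with RUNX1 shRNA against 27.0, 27.1 and 24.1 FPKM with non-targeting shRNA. These did not overlap, and the change of -0.18 ± 0.059 missed the threshold (adjusted p = 0.052), which it passed with a filter at a mean of 5 FPKM (adjusted p = 0.0455) and without non-targeting replicate 3 (0.0275).

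The other kinase module genes did not pass with all libraries. MED13L had 19.6, 21.7 and 19.3 FPKM with RUNX1 shRNA against 18.2, 17.3 and 18.4 FPKM with non-targeting shRNA, without overlap (0.16 ± 0.053, limma adjusted p = 0.0544), and passed without RUNX1 shRNA replicate 3 (0.19, adjusted p = 0.0433). MED12 had 12.9, 13.7 and 11.6 FPKM with RUNX1 shRNA against 12.5, 10.4 and 10.9 FPKM with non-targeting shRNA, with overlap (0.16, 95% interval -0.02 to 0.34). MED12L had 0.849, 0.540 and 0.613 FPKM with RUNX1 shRNA against 0.582, 0.354 and 0.832 FPKM with non-targeting shRNA, below the level of the main test. With no filter on low values its change was 0.08 ± 0.13 (limma adjusted p = 0.75).

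MED1 had 31.7, 33.8 and 30.8 FPKM with RUNX1 shRNA against 28.0, 26.9 and 26.5 FPKM with non-targeting shRNA, without overlap (0.23 ± 0.044, limma adjusted p = 0.00553). MED6 had 21.1, 18.6 and 21.8 FPKM with RUNX1 shRNA against 25.0, 23.8 and 24.5 FPKM with non-targeting shRNA, again without overlap (-0.24 ± 0.058, adjusted p = 0.016). MED15, a tail gene, had 28.3, 27.4 and 25.4 FPKM with RUNX1 shRNA against 23.4, 23.7 and 25.0 FPKM with non-targeting shRNA (0.16 ± 0.049, adjusted p = 0.0394). MED17, a head gene, had 19.7, 19.0 and 17.0 FPKM with RUNX1 shRNA against 21.9, 21.3 and 20.8 FPKM with non-targeting shRNA (-0.19 ± 0.056, adjusted p = 0.0332). For neither of the last 2 genes did the groups overlap. The calls of MED15, MED17 and MED6 were lost in 8, 7 and 3 of 12 alternative settings. Without non-targeting replicate 1, for example, adjusted p was 0.121 for MED15, 0.104 for MED17 and 0.0564 for MED6, and without replicate 3 of that group it was 0.0533, 0.0662 and 0.0527. MED15 and MED17 also lost the call without non-targeting replicate 2 (0.114 and 0.089) and without RUNX1 shRNA replicate 2 (0.0925 and 0.0501), MED15 without RUNX1 shRNA replicate 1 (0.112), and MED17 without RUNX1 shRNA replicate 3 (0.0582). MED14 had 17.7, 17.5 and 16.5 FPKM with RUNX1 shRNA against 15.1, 13.7 and 16.9 FPKM with non-targeting shRNA (0.17, adjusted p = 0.103), and passed without non-targeting replicate 3 (0.24, adjusted p = 0.0324). The 4 genes that moved most with ARV-825 showed changes here of -0.04 for MED19, -0.08 for MED26, 0.12 for MED11 and 0.01 for MED8, with adjusted p from 0.182 to 0.864. MED6 and CDK19, next in size with ARV-825 (-0.78 and 0.68), passed here in the same directions (-0.24 and 0.39), as did MED15 (0.48 and 0.16). MED1 passed in both in opposite directions, at -0.37 with ARV-825 and 0.23 here. MED13 and MED17, which passed here, did not pass with ARV-825 (0.13 and -0.12). RUNX1 itself was lower with ARV-825 (-0.75, limma adjusted p = 2.38e-06), and its change with OTX015 was -0.15 (adjusted p = 0.0668). Its part in these values was not tested.

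Partner genes were set beside Mediator in 2 lists. Both were picked with earlier results of these data known, so their counts are a description and no test against all genes. Of 33 general transcription factor genes, whose products assemble with Mediator and RNA polymerase II at promoters, 11 were higher and 11 lower with ARV-825, 14 and 5 with OTX015, and 3 and 5 with RUNX1 shRNA, each against its own control. In all, 66.7%, 57.6% and 24.2% of this list passed in these comparisons, beside 74.2%, 69.6% and 27.4% of all genes. TAF4B (-1.63) and TAF5 (-1.56), subunits of TFIID, fell most with ARV-825, and TAF9 rose by 1.32 with ARV-825 and by 1.36 with OTX015 on the log2 scale. Set against OTX015, ARV-825 gave 5 higher and 13 lower (54.5%, beside 58.1% of all genes), with TAF5 at -1.29, TAF8 at -0.74 and GTF2A1, a TFIIA gene, at -0.69. TAF12 rose by 1.14 with OTX015, TAF4B fell by 1.23 with it, and with RUNX1 shRNA TAF4B fell by 0.36, TAF13 fell by 0.30 and GTF2A1 rose by 0.35. Of 13 genes of cohesin, the ring complex that folds chromatin together with Mediator, and its regulators, 1 was higher and 10 lower with ARV-825, 5 and 6 with OTX015, and 4 and 1 with RUNX1 shRNA, against control, and 0 higher and 8 lower with ARV-825 against OTX015. Of all genes, 35.8% were higher and 38.4% lower with ARV-825, 36.1% and 33.5% with OTX015, 13.5% and 13.8% with RUNX1 shRNA, and 24.7% and 33.4% with ARV-825 against OTX015. The cohesin subunit SMC3 fell by 1.00 on the log2 scale with ARV-825 and PDS5B, a regulator of the ring, fell by 0.79, and STAG2 fell by 0.60 with ARV-825 and by 0.70 with OTX015. NIPBL, which loads cohesin, rose by 0.44 with OTX015 and by 0.22 with RUNX1 shRNA and was lower by 0.75 with ARV-825 than with OTX015. ESCO2, the 1 gene of the cohesin list higher with ARV-825 (0.36), was also higher with OTX015 (0.46) and was lower with RUNX1 shRNA (-0.19). The median log2 changes with ARV-825 were 0.08 for the first list and -0.34 for the second, beside -0.01 over all genes. In the same order they were 0.08, 0.07 and 0.03 with OTX015 and -0.02, 0.05 and -0.01 with RUNX1 shRNA. For ARV-825 against OTX015 they were -0.03, -0.32 and -0.04.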

How the data were processed

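The authors deposited 2 tables of coding genes, for 9 drug libraries and 6 shRNA libraries. The deposited values were taken as FPKM after quantile normalization, from the tables' names and from TopHat2 2.0, Cufflinks 2.0 and hg19 in the submitters' processing notes. The annotation behind the tables is not stated. Depth is unknown, and total RNA per cell is not measured. Second copies of 16 pseudoautosomal entries were dropped, and 28 symbols that a spreadsheet had made into dates were restored by ID.

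Values were tested as log2(FPKM + 1) with limma 3.58.1 in R 4.3.3 (lmFit and eBayes, variance trend, two-sided), after a filter at a mean of 1 FPKM, and the script was tested on simulated data. One fit held the 9 drug libraries and another the 6 shRNA libraries, with Benjamini-Hochberg adjustment over all genes of the fit. Alternatives were a pseudocount of 0.1, no filter, a mean of 5 FPKM, median-ratio rescaling, no variance trend, only the groups compared, a replicate block and leaving out each library. Exon overlaps came from GENCODE 29 and promoters from RefSeq. Values in every library are given for the kinase module, MED14, MED1 and, per comparison, up to 5 passing members in each direction, and other members are given more briefly. The partner of 1 divergent start is not reported here. The rule for the members uses symbols alone, but these genes and the lists were picked for description with earlier results of these data known.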

Additional observations from a re-analysis of the deposited data

How the results depend on the processing

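The counts of Mediator genes past the threshold stayed within 1.5 times their main value under all alternatives run for ARV-825 against control (21 to 24), OTX015 against control (18 to 22) and ARV-825 against OTX015 (19 to 20). For RUNX1 shRNA the 6 calls became 3, with 0 lower, without a filter on low values, and 1 was lower without a variance trend. Leaving out 1 library gave 3 to 6 calls and 0 to 2 lower, the fewest without non-targeting replicate 1, and 1 was lower without non-targeting replicate 3 or RUNX1 shRNA replicate 3. Whether equal replicate numbers mark paired libraries cannot be decided here. Deviations were taken from the mean of the 3 libraries of a group, which ties them to each other. Deviations of same-numbered libraries correlated at -0.321 to 0.061 in the drug table and -0.003 to 0.061 in the shRNA table. Differently numbered libraries of different groups correlated at -0.224 to 0.409 and at -0.07 to 0.022. The highest value was for ARV-825 replicate 2 with OTX015 replicate 3, and its source was not tested. A replicate block gave 22, 20, 19 and 5 calls, in the order of the comparisons above with RUNX1 shRNA last. Of 1628 single-gene values under alternatives, 1519 kept direction and side of the threshold, 62 lost the call, 14 gained it and 33 changed sign. None of the 33 passed the threshold in either setting (lowest adjusted p = 0.466), and the cause was not tested. With median-ratio rescaling these were MED16 (-0.010), MED28 (-0.014) and MED7 (-0.0079) for OTX015 and MED31 (0.024), MED9 (0.019) and MED15 (0.039) for ARV-825 against OTX015. On leaving out 1 library, values spanned -0.032 to 0.086 for MED25 and -0.149 to 0.026 for MED27 with ARV-825. With OTX015 they spanned -0.026 to 0.062 (MED16), -0.088 to 0.069 (MED25), -0.051 to 0.0024 (MED27), -0.012 to 0.072 (MED28) and -0.042 to 0.079 (MED7). For ARV-825 against OTX015 they spanned -0.031 to 0.053 (MED12), -0.034 to 0.034 (MED15), -0.026 to 0.131 (MED25), -0.131 to 0.043 (MED27), -0.120 to 0.053 (MED31) and -0.053 to 0.031 (MED9). With RUNX1 shRNA they spanned -0.083 to 0.030 (MED19), -0.042 to 0.0047 (MED21), -0.027 to 0.093 (MED22) and -0.025 to 0.052 (MED8). Rescaling shifted the median of all genes by at most 0.04 on the log2 scale. Depth is unknown, and with 3 libraries a group the smallest changes named here rest on few residual degrees of freedom.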
